A study of Mus musculus with 9 samples.

Results

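Glucose sensing and granule zinc loading in the embryonic mouse pancreas were followed through 7 genes: Slc2a2, G6pc2, Abcc8, Kcnj11, Cacna1d, Slc30a8 and Ero1lb. They were picked by symbol for their roles in beta cells, with earlier results of these data known. All 7 were found, each as 1 locus, among the 23235 gene symbols of the deposited tables, and all 7 passed the filter on low values (at least 1 FPKM in at least 3 libraries), as did 13306 symbols in all. The tissue was whole pancreas of mouse embryos at stage e15.5, on a mixed background of c57bl/6 and 129sv. The groups were 3 libraries from Blinc1+/+ (wild type), 3 from Blinc1+/- (heterozygote) and 3 from Blinc1-/- (knockout) embryos, where Blinc1 is a long noncoding RNA gene that lies near the islet transcription factor gene Nkx2-2. The labels give neither how the allele was made nor whether each library stands for its own embryo, so the p-values speak only to the spread among these libraries, which may be partly technical. All levels are FPKM, fragments scaled to transcript length and to library size, so levels of different genes can be compared per length.

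A beta cell couples blood glucose to insulin release through a short chain of proteins. Glucose enters through the transporter GLUT2 (Slc2a2) and is phosphorylated as the first step of its breakdown, a step that the islet glucose-6-phosphatase G6pc2 opposes. The ATP made from glucose closes a potassium channel built of a pore subunit (Kcnj11) and the sulfonylurea receptor SUR1 (Abcc8). The membrane then depolarises and opens L-type calcium channels such as the one formed by Cacna1d, and calcium sets off release of insulin granules. Zinc, pumped into the granule by the transporter ZnT8 (Slc30a8), packs insulin into crystals, and the oxidase Ero1lb in the endoplasmic reticulum supplies the oxidising power that joins insulin's disulfide bonds. At this embryonic stage beta cells are still few and immature, and acinar cells make up much of the organ.

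The promoters of Slc2a2 and G6pc2, whose levels were low in knockout replicates 2 and 3 and heterozygote replicate 1 (Slc2a2 also in heterozygote replicate 3), and of Ero1lb, which was not low there (listed as Ero1b), are shown so that the results can be read beside their sequence. Each line holds the 250 bases before the transcript start, 5′ to 3′ on the coding strand, with matches to 2 motifs in capitals. The motifs are AAGTG, the core bound by the NK2 class of homeodomain factors to which Nkx2-2 belongs, and CANNTG, the E box bound by basic helix-loop-helix factors; both strands were searched.
Slc2a2: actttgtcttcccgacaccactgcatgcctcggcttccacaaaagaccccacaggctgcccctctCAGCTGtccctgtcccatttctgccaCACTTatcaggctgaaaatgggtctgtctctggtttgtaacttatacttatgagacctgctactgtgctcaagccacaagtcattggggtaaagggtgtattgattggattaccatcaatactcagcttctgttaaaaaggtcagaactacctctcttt
G6pc2: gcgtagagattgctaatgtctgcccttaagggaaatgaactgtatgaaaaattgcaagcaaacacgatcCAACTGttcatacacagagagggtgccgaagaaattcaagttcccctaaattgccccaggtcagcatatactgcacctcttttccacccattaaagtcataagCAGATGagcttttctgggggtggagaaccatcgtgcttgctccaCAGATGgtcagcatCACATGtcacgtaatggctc
Ero1lb: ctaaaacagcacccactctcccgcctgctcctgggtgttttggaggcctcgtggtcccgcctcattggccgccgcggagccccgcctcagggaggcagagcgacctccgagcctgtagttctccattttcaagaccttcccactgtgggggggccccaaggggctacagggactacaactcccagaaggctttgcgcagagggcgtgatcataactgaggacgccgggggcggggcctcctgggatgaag
The sequences come from RefSeq (GRCm38.p6) and each matched 1 place on its mm9 chromosome without a mismatch: chr3:28596575-28596824 for Slc2a2, chr2:69057756-69058005 for G6pc2 and chr13:12657900-12658149 for Ero1lb, all on the plus strand. The start site of the printed G6pc2 entry lies 49 bases before the start of the deposited locus, and another G6pc2 entry farther upstream is not printed. The Slc2a2 window held 1 AAGTG, at bases -159 to -155 counted from the start site, and 1 E box, at -185 to -180. The printed G6pc2 window held 4 E boxes, at -181 to -176, -78 to -73, -34 to -29 and -20 to -15, and no AAGTG. The Ero1lb window held neither. No match overlapped another, and TAATTA, a homeodomain core also searched on both strands, had no match in the 3 windows. Among 32851 promoter windows of the same length, 40.7% held AAGTG, 66.2% an E box and 4.84% TAATTA, so these matches are common and are given as a description only. RefSeq entries were matched for 4 of the 7 genes, and Abcc8, Kcnj11 and Slc30a8 had no entry. Of the 2 Cacna1d entries, which are not printed, 1 held an E box, at -183 to -178, and neither held AAGTG or TAATTA.

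The libraries differed within groups in ways the labels do not explain. The targeted transcript was not analysed here under the name Blinc1, so the genotype labels could not be checked against it. For Nkx2-2 the wild-type libraries gave 15.2, 21.7 and 25.5 FPKM (replicates in order, here and below), the heterozygotes 6.37, 19.0 and 13.4 and the knockouts 24.9, 6.08 and 5.48. Knockout replicate 1 thus lay within the wild-type range, and heterozygote replicate 1 lay with knockout replicates 2 and 3. Whether the labels of these 2 libraries were exchanged was not tested; an exchange would alter the group means below, most of all those of G6pc2, Slc30a8 and Slc2a2, so differences are also given without each of them. Xist was above 30 FPKM in all 3 knockouts and in only replicate 3 of each other group, so all 3 knockout libraries were female and sex and genotype partly coincide. Total depth was 19532984 to 25437255 fragments per library as implied by the deposited confidence bounds, and each of the 7 genes rested on 67 to 4839 fragments in a library.

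The transporter and enzyme genes of glucose sensing had lower means in both mutant groups, without passing the test, and the low values lay in some libraries of each group. Slc2a2 (mm9 chromosome 3, 28596825 to 28627282, plus strand), the gene of the low-affinity glucose transporter, was at 6.55, 9.57 and 10.7 FPKM in wild type, 5.18, 7.61 and 5.22 in heterozygotes and 9.59, 5.35 and 4.96 in knockouts. Knockout replicates 2 and 3 and heterozygote replicates 1 and 3 lay below every wild-type library, while knockout replicate 1 lay inside the wild-type range. The group means were 8.96 ± 2.16 in wild type, 6.00 ± 1.40 in heterozygotes and 6.63 ± 2.57 in knockouts (SD, n = 3 each). In whole tissue, fewer cells of a type and less RNA per cell cannot be told apart. The annotation (GENCODE vM1) places a noncoding transcript, 1700112D23Rik, on the opposite strand within Slc2a2, and the strand setting of the counting is not given in the sources used here.

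G6pc2 (chromosome 2, 69058055 to 69066045, plus strand), the islet glucose-6-phosphatase, was at 6.72, 10.3 and 7.58 FPKM in wild type, 3.59, 8.11 and 8.71 in heterozygotes and 7.66, 3.38 and 3.37 in knockouts. Heterozygote replicate 1 and knockout replicates 2 and 3 formed a low set, and the other 6 libraries ran from 6.72 to 10.3. Group means were 8.20 ± 1.87, 6.81 ± 2.80 and 4.80 ± 2.47 (SD, n = 3). The values of the low set came from 127 to 160 fragments each.

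The subunits of the potassium channel did not follow the transporter. Kcnj11, the pore subunit (chromosome 7, 53352493 to 53356134, minus strand), was at 16.8, 14.3 and 17.6 FPKM in wild type, 18.2, 19.7 and 15.3 in heterozygotes and 17.5, 20.4 and 21.6 in knockouts. Its highest levels were in knockout replicates 2 and 3, where Slc2a2 and G6pc2 were low, and knockout replicate 1 lay inside the wild-type range. The next highest was heterozygote replicate 2, where Slc2a2 (7.61) and G6pc2 (8.11) were not low. Summed levels of 12 acinar markers were also highest in these libraries, at 29600, 24300 and 26000 FPKM in the order named. The part of acinar content in the Kcnj11 levels was not tested. The means were 16.2 ± 1.72, 17.7 ± 2.25 and 19.8 ± 2.09 (SD, n = 3). Abcc8, the regulatory subunit, lies 3.76 kb away on the same strand (53359893 to 53435403). It was at 19.0, 18.6 and 22.7 FPKM in wild type, 20.5, 21.1 and 20.1 in heterozygotes and 22.1, 18.5 and 20.1 in knockouts, with means of 20.1 ± 2.29, 20.6 ± 0.510 and 20.2 ± 1.77. The 3 groups overlapped at Abcc8, and its largest value was only 1.23 times its smallest.

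The channel protein is assembled from equal numbers of the 2 subunits. Their transcript ratio in whole tissue, which does not measure assembly, ran from 0.906 to 1.32 over the libraries. Abcc8 to Kcnj11 stood at 1.13, 1.30 and 1.29 in wild type, 1.12, 1.07 and 1.32 in heterozygotes and 1.26, 0.906 and 0.934 in knockouts. Knockout replicates 2 and 3 were the only libraries with more Kcnj11 than Abcc8 per length, and knockout replicate 1 lay in the wild-type range. Mean ratios were 1.24 ± 0.0951, 1.17 ± 0.128 and 1.03 ± 0.196 (SD, n = 3), given as a description with no test.

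Cacna1d, which forms the pore of an L-type calcium channel (chromosome 14, 30853125 to 31304342, minus strand), had the lowest mean of the 7 genes. It was at 3.08, 2.93 and 2.70 FPKM in wild type, 2.43, 3.19 and 2.83 in heterozygotes and 3.15, 2.74 and 2.36 in knockouts. The groups overlapped throughout, with means of 2.91 ± 0.192, 2.82 ± 0.381 and 2.75 ± 0.397 (SD, n = 3). Its annotated span overlaps Chdh and Dcp1a on the opposite strand, so reads of these genes could not be told apart by strand if the counting did not use it.

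Slc30a8, the zinc transporter of the insulin granule (chromosome 15, 52127108 to 52167288, plus strand), had the widest range of the 7 as a ratio of highest to lowest level. It was at 4.59, 6.77 and 6.83 FPKM in wild type, 1.89, 5.38 and 3.90 in heterozygotes and 5.48, 2.96 and 2.14 in knockouts. The 3 lowest libraries were again heterozygote replicate 1 and knockout replicates 2 and 3, on 67 to 132 fragments, and the highest level was 3.61 times the lowest. Knockout replicate 1 was above the lowest wild-type library. The means were 6.06 ± 1.28 in wild type, 3.73 ± 1.75 in heterozygotes and 3.53 ± 1.74 in knockouts (SD, n = 3).

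Ero1lb, the endoplasmic reticulum oxidase (chromosome 13, 12658150 to 12701795, plus strand), was the most abundant of the 7 and leaned the other way. It was at 36.8, 32.9 and 34.2 FPKM in wild type, 36.5, 40.1 and 35.2 in heterozygotes and 39.4, 46.0 and 37.4 in knockouts. Every knockout library lay above every wild-type library, by a narrow margin between 37.4 and 36.8. The means were 34.6 ± 1.98, 37.3 ± 2.53 and 40.9 ± 4.53 (SD, n = 3). The annotated span of Ero1lb overlaps SNORA73, a small nucleolar RNA gene on the same strand, whose reads could not be told apart by strand. The summed level of 12 acinar markers was highest in knockout replicate 2, at 29600 FPKM, and next highest in heterozygote replicate 2, at 26000, the libraries with the highest Ero1lb. In knockout replicate 1, however, the acinar sum was 18900, below all wild types (20900 to 21200), while Ero1lb was at 39.4. The part of acinar content in the Ero1lb difference was not tested.

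**Figure D1:**
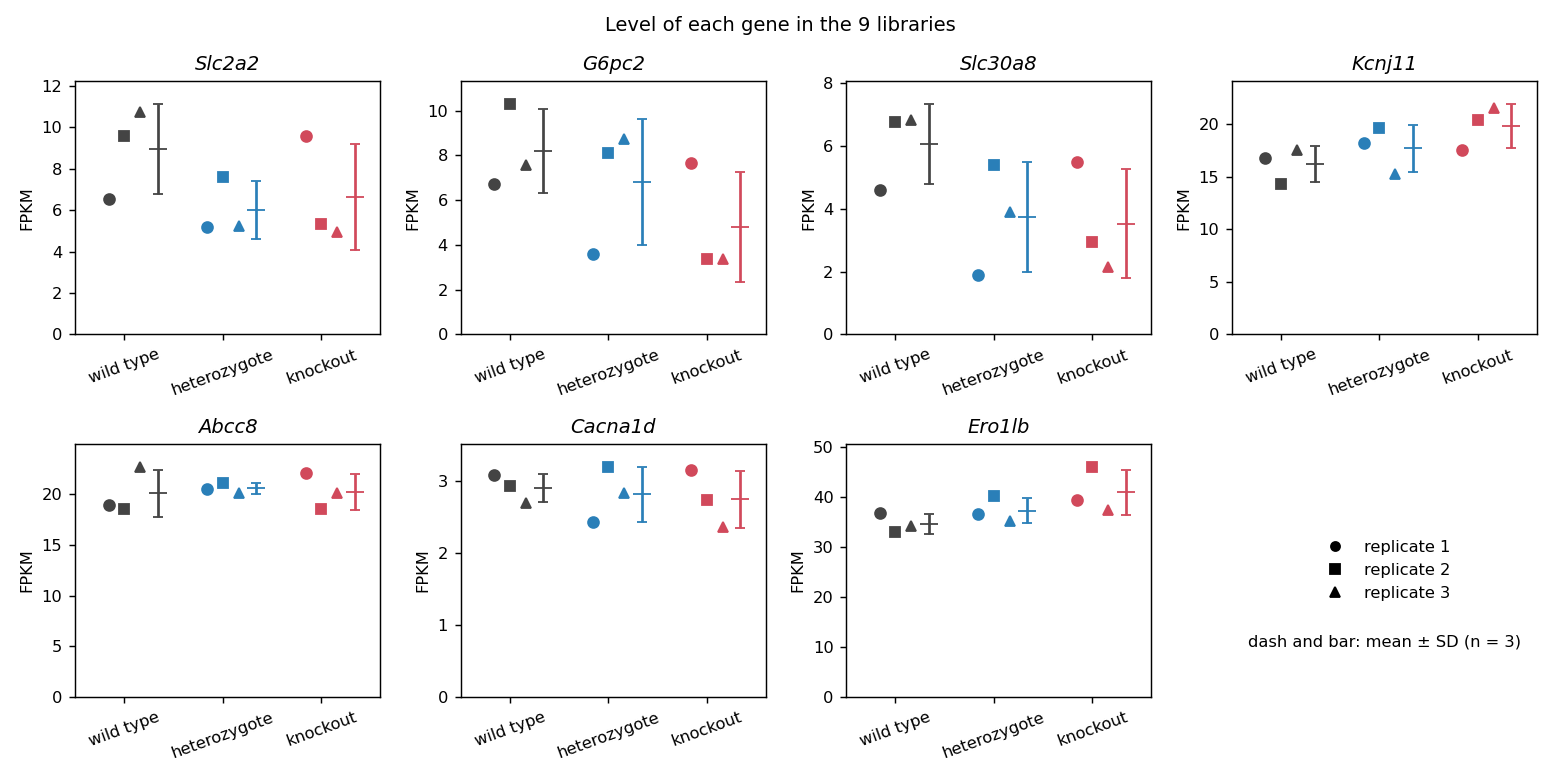
FPKM of each of the 7 genes (vertical axes, linear from 0) in the 9 libraries by genotype; symbols mark replicates, and the dash and bar give the mean ± SD of 3 libraries. Slc2a2, G6pc2 and Slc30a8 are low in knockout replicates 2 and 3 and in heterozygote replicate 1, and Slc2a2 also in heterozygote replicate 3, while Abcc8 stays between 18.5 and 22.7 FPKM, and Ero1lb in knockouts lies above 37 FPKM.

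Ordered by mean level over the 9 libraries, Ero1lb (37.6 ± 3.89 FPKM, SD) stood clear of the others. Abcc8 (20.3 ± 1.49) and Kcnj11 (17.9 ± 2.36) came next with overlapping ranges, and their lowest value, 14.3, was above the highest value of any gene that followed. Slc2a2 (7.20 ± 2.26), G6pc2 (6.60 ± 2.56), Slc30a8 (4.44 ± 1.85) and Cacna1d (2.83 ± 0.299) overlapped each with the next in their ranges over the libraries. Read within libraries, G6pc2 was above Slc30a8 in every one. The order of Slc2a2 and G6pc2, and that of Slc30a8 and Cacna1d, changed between libraries. The lowest values of Slc2a2 (4.96) and G6pc2 (3.37) were above the highest of Cacna1d (3.19). Within genotypes the log2 levels of Abcc8, Ero1lb, Cacna1d and Kcnj11 had SDs of 0.11, 0.11, 0.13 and 0.16, near the median of 0.11 for all tested genes. Those of Slc2a2, Slc30a8 and G6pc2 were 0.36, 0.48 and 0.50.

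The wider spread of these 3 genes ran along with that of the insulin genes. G6pc2, Slc30a8, Ins1, Ins2 and Nkx2-2 all had their 3 lowest levels in heterozygote replicate 1 and knockout replicates 2 and 3. For Slc2a2 the 3 lowest were knockout replicate 3, heterozygote replicate 1 and heterozygote replicate 3. Knockout replicate 1 exceeded the mean of the other knockouts 1.86-fold at Slc2a2, 2.27-fold at G6pc2 and 2.15-fold at Slc30a8, compared with 1.96-fold at Ins2 and 4.31-fold at Nkx2-2. The corresponding values at Abcc8, Kcnj11 and Ero1lb were 1.14, 0.834 and 0.945. Nkx2-2 and the insulin genes are set beside these genes as values, and their part in the differences was not tested.

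**Figure D2:**
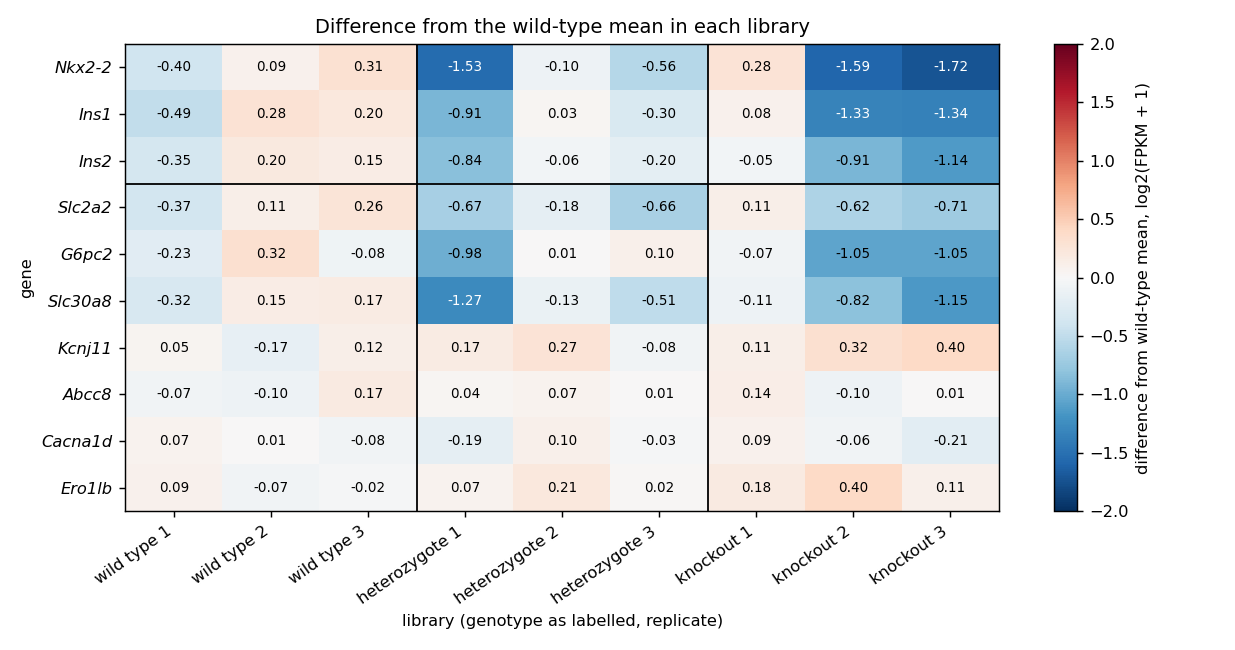
Difference of each library (columns) from the wild-type mean on the log2(FPKM + 1) scale, for Nkx2-2, Ins1 and Ins2 above the line and the 7 genes below it; blue is lower and red higher. Heterozygote replicate 1 and knockout replicates 2 and 3 are blue from Nkx2-2 down to Slc30a8, and at the other 4 genes they lie between -0.21 and 0.40.

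Setting each gene against Ins2, the main insulin gene, gave ratios that differed in how far they varied over the libraries, with no clean split among the 7. Per 1000 FPKM of Ins2, Slc2a2 ran from 2.29 to 4.17 FPKM, G6pc2 from 2.43 to 3.83 and Slc30a8 from 1.29 to 2.34 over the 9 libraries. For Slc30a8 the wild-type ratios were 2.24, 2.25 and 2.34, the knockout ratios 2.17, 2.13 and 1.80, and the heterozygote ratios 1.29, 2.14 and 1.72. For Slc2a2 the wild-type ratios were 3.20, 3.18 and 3.68, the knockout ratios 3.80, 3.85 and 4.17, and the heterozygote ratios 3.54, 3.03 and 2.29. At Slc2a2 the knockouts lay above the wild types, and at Slc30a8 all knockouts and heterozygotes lay below them. How many of all genes separate the groups in such a ratio was not counted. Cacna1d ran from 0.926 to 1.98, Abcc8 from 6.17 to 16.9, Kcnj11 from 4.75 to 18.1 and Ero1lb from 10.9 to 33.1 on the same scale, with the highest ratio of each in knockout replicate 2 or 3. The ratios are descriptions with no test, and a low Ins2 raises all of them in the same library.

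**Figure D3:**
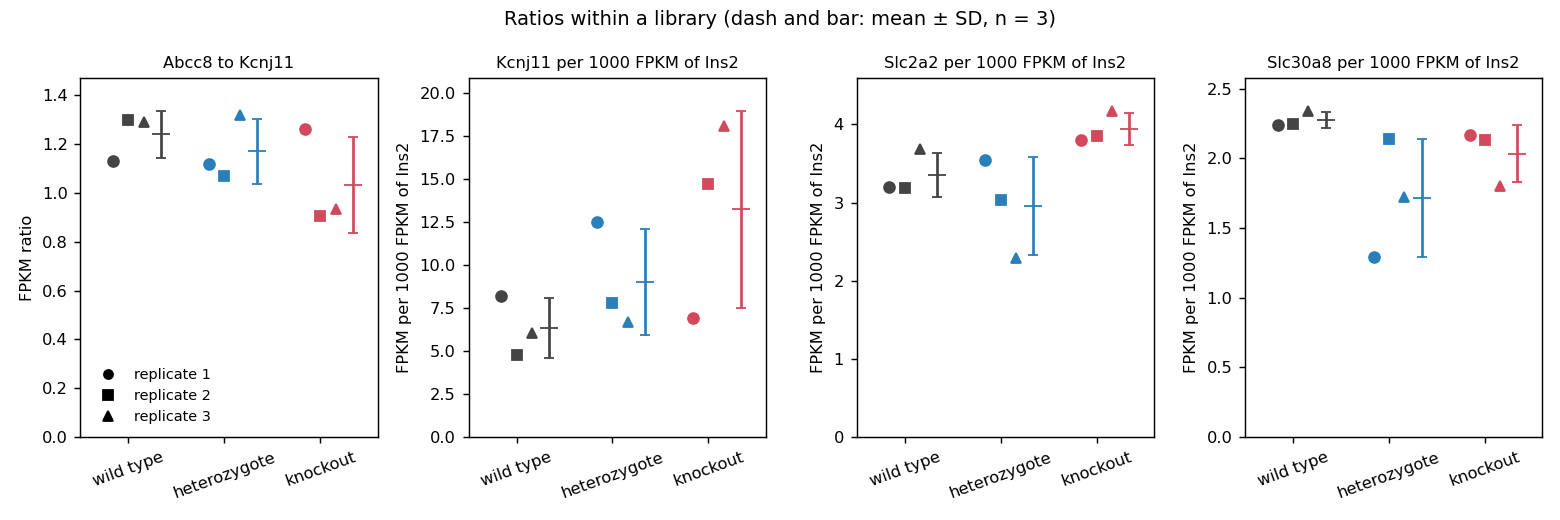
Ratios within each library, by genotype: Abcc8 to Kcnj11 in FPKM, and Kcnj11, Slc2a2 and Slc30a8 per 1000 FPKM of Ins2 (axes linear from 0; dash and bar, mean ± SD of 3 libraries). Kcnj11 against Ins2 reaches 14.7 and 18.1 in knockout replicates 2 and 3, where Slc30a8 against Ins2 is at 2.13 and 1.80, compared with 2.24 to 2.34 in wild type.

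Likeness over the 9 libraries was measured as the root mean square difference of log2(FPKM + 1) after centring each gene. It depends on how far the genes vary as well as on whether they rise and fall together. A small value means profiles close in both, or genes that all vary little. Outside the set, the genes nearest to G6pc2 were Ins2 (0.157) and Chga, a granin of secretory granules (0.196), and those nearest to Slc30a8 were Chga (0.14) and Ins2 (0.161). The genes nearest to Slc2a2 were Pamr1 (0.114) and Ptprn2, a membrane protein of dense-core vesicles (0.132). Inside the set, Slc2a2 with Slc30a8 (0.237) and G6pc2 with Slc30a8 (0.243) were closer than Slc2a2 with G6pc2 (0.366). Slc2a2 was also closer to Cacna1d (0.322) and Abcc8 (0.335) than to G6pc2. Cacna1d and Abcc8 varied little, so their values with Slc2a2 depend on the size of variation and do not show profiles that run together. G6pc2 with Kcnj11 was the most distant pair (0.65). The other 4 genes varied little, so their nearest genes were at 0.037 to 0.052 and say little beyond that: Asf1b and Tbcel for Abcc8, Oip5 and Cgn for Kcnj11, Fnip2 and Zfp128 for Cacna1d, and Slc33a1 and Gm5424 for Ero1lb.

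In knockout against wild type, 4 of the 7 genes had lower and 3 higher estimates, and limma with Benjamini-Hochberg adjustment over all 13306 genes called 0 of the 7 (0% of all genes were called, and 0 with voom on implied fragments). G6pc2 differed by -0.73 on the log2(FPKM + 1) scale (SE 0.34, limma adjusted p = 0.576), Slc30a8 by -0.69 (SE 0.32, 95% interval -1.42 to 0.04) and Slc2a2 by -0.41 (SE 0.24, -0.96 to 0.14). Kcnj11 differed by 0.28 (SE 0.11, limma unadjusted p = 0.0366) and Ero1lb by 0.23 (SE 0.08, limma unadjusted p = 0.0225). These were the 2 genes of the 7 under an unadjusted p of 0.05, both higher, where 2.60% of all tested genes were higher and 5.79% lower by that rule; the same 2 came out with voom. Only Ero1lb had all knockouts above all wild types, which held for 4.55% of tested genes, and no gene of the 7 had all knockouts below, which held for 6.64%. For Abcc8 (0.01, SE 0.09) and Cacna1d (-0.06, SE 0.11) the 95% intervals ran from -0.18 to 0.21 and from -0.31 to 0.19.

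Single libraries set how many of the 7 fell under that unadjusted threshold. The number was 5 without knockout replicate 1 (all but Abcc8 and Cacna1d), but the number over all 13306 tested genes moved as well, from 1117 to 2628. It was 4 without heterozygote replicate 1 (999 of all genes) and 4 when only the wild-type and knockout libraries were fitted (954), with G6pc2 and Slc30a8 added to Kcnj11 and Ero1lb in both. It was 3 without wild-type replicate 1 (717) or heterozygote replicate 2 (1112), and 1 without either wild-type replicate 3 (1509) or knockout replicate 3 (603). It was 0 on leaving out knockout replicate 2 (399), and also on leaving out wild-type replicate 2 (416). Without knockout replicate 1 the differences were -1.05 for G6pc2, -0.98 for Slc30a8 and -0.67 for Slc2a2 (limma adjusted p = 0.13, 0.14 and 0.13). With sex as a covariate they were -0.88, -0.84 and -0.46, and 1 gene of the 7, Ero1lb, was under the unadjusted threshold (0.28, limma adjusted p = 0.87), as were 558 of all 13306 genes. Among females alone wild type has 1 library, replicate 3, in which G6pc2 was at 7.58, Slc30a8 at 6.83 and Ero1lb at 34.2 FPKM.

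The heterozygote comparison asks what the loss of a single allele does, and it shares its wild-type libraries with the comparison above. Here limma called 0 of the 7 (0% of all genes), and 0 were under an unadjusted p of 0.05 (3.92% of all). Slc30a8 differed by -0.64 (SE 0.32, limma adjusted p = 0.945), Slc2a2 by -0.50 (SE 0.24) and G6pc2 by -0.29 (SE 0.34). The same 3 genes thus had the lowest estimates as in the knockouts, but with the shared wild types this is no second line of evidence. Kcnj11, Ero1lb, Abcc8 and Cacna1d differed by 0.12, 0.10, 0.04 and -0.04. No gene of the 7 had all heterozygotes above all wild types (3.54% of tested genes) or all below (7.05%). Without heterozygote replicate 1 the difference of G6pc2 was 0.05, that of Slc30a8 -0.32 and that of Slc2a2 -0.42. The number of the 7 under an unadjusted p of 0.05 was 2 (Slc2a2 and Slc30a8) without heterozygote replicate 2 or without knockout replicate 1, where 552 and 742 of all genes were, and 1 (Slc2a2) without wild-type replicate 1 (396) or with only the heterozygote and wild-type libraries fitted (721).

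Between knockouts and heterozygotes limma called 0 of the 7 (0% of all genes), and again 0 were under an unadjusted p of 0.05 (2.22% of all). The largest difference was that of G6pc2, at -0.43 (SE 0.34, 95% interval -1.19 to 0.32). It was -0.78 without heterozygote replicate 1 and -0.76 without knockout replicate 1, where it was the 1 gene of the 7 under an unadjusted p of 0.05 (with 287 and 1189 of all genes), and -0.24 without heterozygote replicate 3. Leaving out heterozygote replicate 2 gave -0.28, and leaving out knockout replicate 2 or 3 gave -0.27. Slc2a2, Slc30a8 and Abcc8 differed by 0.09, -0.06 and -0.03, and Kcnj11, Ero1lb and Cacna1d by 0.16, 0.13 and -0.03. No gene of the 7 separated the groups completely, which 3.48% of tested genes did with knockouts above and 2.43% with knockouts below.

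**Figure D4:**
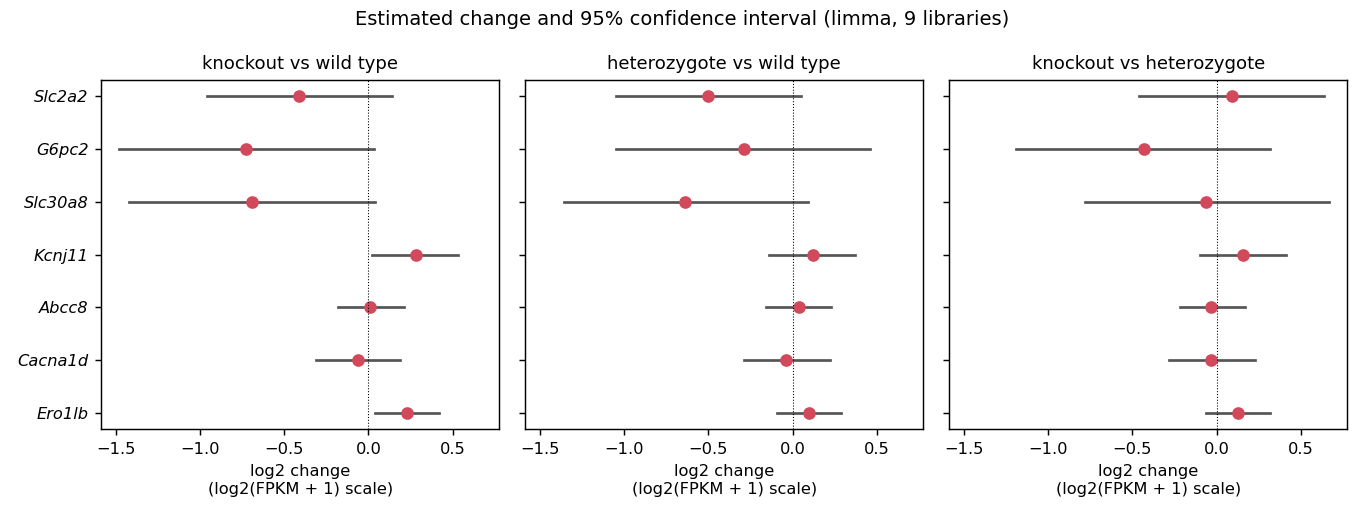
Estimated log2 change (points) with 95% confidence interval (lines) of the 7 genes in the 3 comparisons, on the log2(FPKM + 1) scale. The intervals of G6pc2, Slc30a8 and Slc2a2 are wide and include 0 in each comparison, those of Abcc8 and Cacna1d are narrow around 0, and only Kcnj11 and Ero1lb in knockouts against wild type lie just above it.

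The relatives of these genes in the same families showed which isoforms the tissue holds. Slc2a1, the widely expressed glucose transporter, was at 39.5 ± 1.66 FPKM in wild type (SD, n = 3), and the ratio of Slc2a2 to Slc2a1 was 0.109 to 0.266 in the 9 libraries. G6pc, the phosphatase of liver and kidney, was at 0.165 ± 0.0467, far under G6pc2, and the ubiquitous G6pc3 was at 27.4 ± 0.539. The other pair of potassium channel subunits, typical of vessels and smooth muscle, was present too, with Kcnj8 at 22.6 ± 3.07 and Abcc9 at 11.0 ± 1.26. Cacna1d exceeded Cacna1c, the other main L-type gene, 3.46- to 4.71-fold, and was lower than the T-type gene Cacna1g (7.15 ± 1.60). Of the Slc30 transporters, Slc30a5, which serves the secretory pathway, was most abundant at 53.1 ± 0.831, and Slc30a8 was lower than Slc30a4, Slc30a6, Slc30a7 and Slc30a9 (9.13 to 23.6). Ero1lb was 2.01 to 2.61 times Ero1l, its general counterpart.

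**Figure D5:**
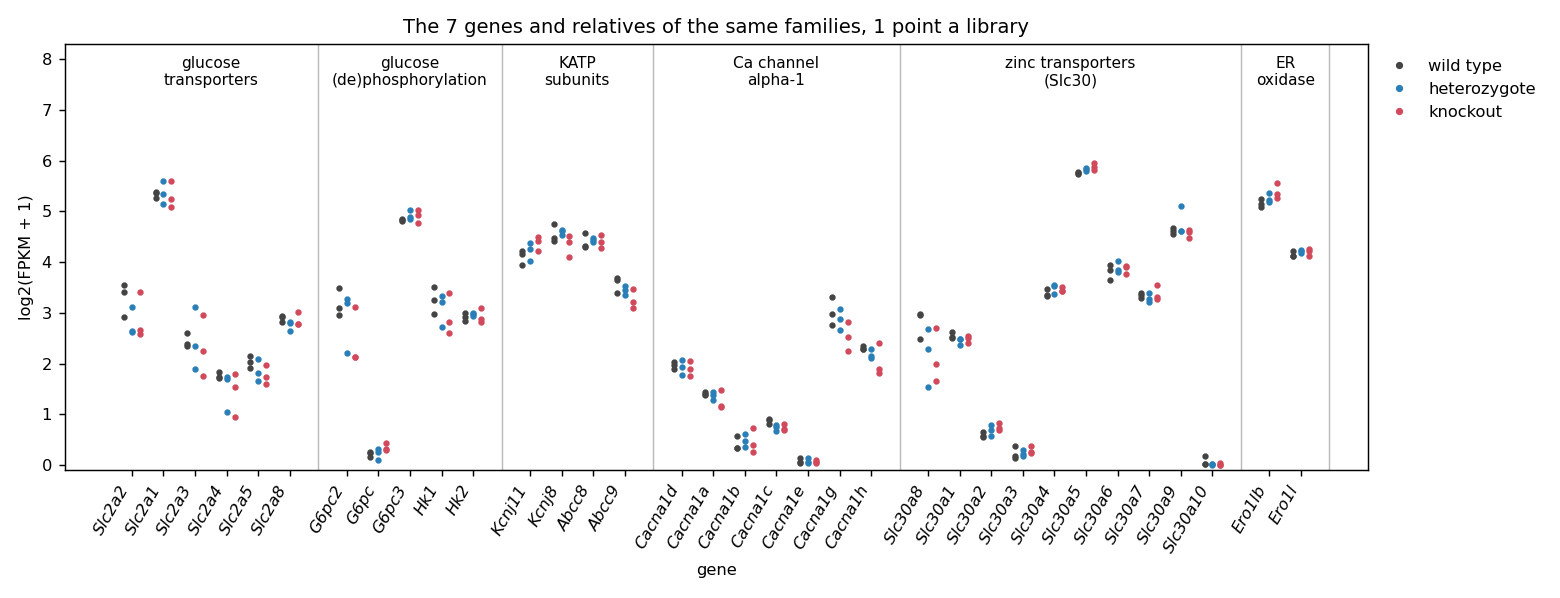
Level of the 7 genes and of relatives in the same families, as log2(FPKM + 1), with 1 point for each library and colours for genotype. G6pc2 and Slc30a8 spread over more than 1 log2 unit, as do the relatives Slc2a3 and Cacna1g, while G6pc3 and Slc30a5, the most abundant genes of their families drawn, keep narrow ranges.

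Companion lists around each step were also read, with 0 genes called by limma in any list and comparison after adjustment over all genes. Of 21 tested genes of glucose entry and metabolism, 7 had higher and 14 lower estimates in knockouts, 0 were under an unadjusted p of 0.05, and the median log2 difference was -0.03, the same as over all tested genes (-0.03). Ldha, a lactate dehydrogenase, was at 352 ± 16.8 and 378 ± 23.0 FPKM in wild type and knockout, Glud1, a glutamate dehydrogenase, at 108 ± 1.97 and 105 ± 5.40, and the fructose transporter Slc2a5 at 3.09 ± 0.341 and 2.42 ± 0.446. Of 14 tested genes of membrane excitability (of 28 listed), 12 had lower estimates in knockouts, with a median of -0.28. Under an unadjusted p of 0.05 there were 3, all lower, where 5.79% of all tested genes were lower by that rule. The 3 were Abcc9 (log2 difference -0.32, SE 0.11), Cacna1g (-0.47, SE 0.18) and Trpm5, a cation channel activated by calcium (-0.45, SE 0.18), the last named after its values were seen. The potassium channel genes Kcnk16, at 62.9 ± 7.76 and 55.1 ± 1.77, and Kcnq1, at 33.2 ± 2.07 and 33.5 ± 1.37, had the highest levels of this list.

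Of 23 tested zinc genes (of 27 listed), 11 had higher and 12 lower estimates in knockouts, with a median of -0.05. Only Slc30a5 was under an unadjusted p of 0.05 (0.12, SE 0.05), where 2.60% of all tested genes were higher by that rule. The metallothionein genes Mt1 and Mt2, which bind zinc in the cytosol, were at 1691 ± 130 and 1224 ± 82.4 FPKM in wild type and at 1553 ± 218 and 1001 ± 172 in knockouts (SD, n = 3). All 20 genes of disulfide formation were tested, 15 with higher and 5 with lower estimates in knockouts and a median of 0.08. Pdia5, a protein disulfide isomerase, was the only one under an unadjusted p of 0.05 (0.13, SE 0.05), against the same 2.60% of all tested genes. The isomerase genes P4hb and Pdia6, which had the highest means over all libraries (Pdia6 by less than the spread over Pdia3), were at 1208 ± 36.2 and 606 ± 4.39 in wild type and 1281 ± 60.6 and 625 ± 36.7 in knockouts, and Dnajc10, a reductase, at 56.1 ± 1.07 and 51.2 ± 3.36. In heterozygotes against wild type, 1 gene of this list was higher (Qsox2) and 1 lower (Dnajc10) under an unadjusted p of 0.05, and 0 genes of the other 3 lists. In that comparison 3.92% of all tested genes were under it in either direction. Qsox2 was named after its values were seen.

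Marker lists placed these genes in their tissue, with levels summed per library and given as wild-type and knockout ranges; 0 markers were called by limma. The 7 beta cell markers summed to 2930 to 4320 and 1780 to 3660 FPKM, 5 of 7 had lower estimates in knockouts, and Ins2 was under an unadjusted p of 0.05. In heterozygotes that sum was 2110 to 3660, lowest in replicate 1. The sum is mostly Ins2: it was low in heterozygote replicate 1 and knockout replicates 2 and 3, at 2110, 2000 and 1780, but Pdx1, an islet and progenitor transcription factor gene, was at 38.7, 36.9 and 36.7 FPKM there, above every wild type (29.8 to 35.6). Nkx6-1, a beta cell transcription factor gene, was at 24.0, 20.7 and 20.5 in the same libraries, within the wild-type range of 18.9 to 25.0. The rest of the list, Ins1, Ins2, Iapp, Mafa and Nkx2-2, lay below every wild type in these libraries. Mafa was at 2.01, 1.77 and 1.30 (wild type 2.19 to 3.855) and Iapp at 259, 305 and 293 (wild type 383 to 515.5). In heterozygote replicate 3, where Slc2a2 was at 5.22, the sum was 3220, within the wild-type range. Pdx1 and Nkx6-1 were singled out after their values were seen. All 5 alpha cell markers (820 to 1060 and 726 to 926, led by Gcg, the glucagon gene, at 913 ± 120 and 813 ± 96.7) and all 6 endocrine progenitor markers (89.8 to 124 and 70.2 to 114, led by Neurog3 at 60.5 ± 11.3 and 51.4 ± 14.9) had lower estimates in knockouts. Markers of delta, epsilon and PP cells, led by Pyy (432 ± 74.5 and 414 ± 51.4), summed to 721 to 988 and 724 to 1050, with 3 of 5 higher. The sum hides members that moved apart: Sst, the somatostatin gene, differed by 0.89 (SE 0.41) and Ghrl by -0.50 (SE 0.33). In heterozygote replicate 1 and knockout replicates 2 and 3, Sst was at 375, 422 and 455 FPKM, above every wild type (152 to 191). Heterozygote replicate 2, at 201, was above them as well. Sst and Ghrl were named after their values were seen.

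Outside the islet lineage, 10 of 12 acinar markers had higher estimates in knockouts, led by the carboxypeptidase gene Cpa1 (8243 ± 353 and 9415 ± 2099). Lower in all their members were the mesenchyme list (8 genes, 763 to 1040 and 611 to 866, led by Col3a1), the endothelial list (6 genes, 149 to 178 and 122 to 157, led by Cdh5) and the immune list (6 genes, 212 to 234 and 177 to 207, led by C1qa), with 3 genes each under an unadjusted p of 0.05. By that rule 5.79% of all tested genes were lower in knockouts and 2.60% higher, and the median difference over all tested genes was -0.03. The duct markers, led by Spp1, summed to 655 to 754 and 620 to 678, with 4 of 7 tested genes lower. Neuron and glia markers, led by Tubb3, summed to 57.2 to 76.5 and 54.0 to 119, with 4 of 8 lower. The erythroid markers, led by Hba-a1, summed to 4760 to 6960 and 5050 to 7020, with 1 of 4 lower. The part of these differences in the results for the 7 genes was not tested.

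Slc2a2 is also a gene of liver and gut. The 7 liver markers, led by Afp, summed to 105 FPKM in wild-type replicate 2 and to 34.9 to 59.0 in the other libraries, and 4 of the 5 tested ones were lower in knockouts. Slc2a2 was at 10.7 FPKM in wild-type replicate 3, where the liver sum was 37.3, and at 9.57 in replicate 2. Of 6 gut and stomach markers, Cdx2, Fabp2, Gkn1 and Muc5ac were under 1 FPKM in every library, and the list, led by Tff2, summed to 37.4 to 50.9 in wild type and 40.7 to 49.9 in knockouts. Vil1, the other tested marker, was lowest in heterozygote replicates 1 and 3 (6.18 and 6.54) and knockout replicate 3 (6.30), the libraries lowest for Slc2a2. In knockout replicate 2, where Slc2a2 was at 5.35, Vil1 was at 8.31, within the wild-type range (6.92 to 10.8). Vil1 was named after its values were seen, and the part of gut tissue in the Slc2a2 levels was not tested.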

How the data were processed

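RNA of 9 whole pancreas samples (3 per genotype) was sequenced on a HiSeq2000 from TruSeq libraries, per the labels. The authors deposited 1 table per sample with FPKM and its lower and upper confidence bounds, per the file headers; replicates were not pooled. TopHat 2.0.4 aligned the reads to mm9 and tolerated 4 mismatches and 10 hits, per the labels, and the submitters' processing notes also name Cufflinks, DESeq and CASAVA 1.8.2. Neither annotation nor strand setting is given in the sources used here.

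FPKM of symbols with several loci (248) were summed, and 4 symbols with an estimate listed as failed for excess data were dropped. An implied fragment number was taken from the upper bound, assumed to lie 2 standard errors above the FPKM. Tests used limma 3.58.1 in R 4.3.3 on log2(FPKM + 1) with an intensity trend, all 9 libraries and genotype as the only term, for genes of at least 1 FPKM in at least 3 libraries (13306). They were two-sided, adjusted by Benjamini-Hochberg, at a threshold of 0.05. The log2(FPKM + 1) scale understates changes of low genes. The precision is limited by 3 libraries a group.

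The 7 genes and all lists were chosen with earlier results of these data known. Named by rule were the 7 genes, the 2 genes of highest level and of smallest p in knockout against wild type per companion list, the 2 nearest profiles per gene, the highest gene per marker list, and Nkx2-2, Ins1 and Ins2. The printed promoters, the motifs, the ratios to Ins2 and within families, and further relatives of the 7 genes were chosen after values were seen. Alternatives were another pseudocount, no filter, fits of the compared groups only, a replicate block, a sex term, median scaling, voom, and leaving out each library. The values of 1 gene of the glucose list are not reported here.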

Additional observations from a re-analysis of the deposited data

How the results depend on the processing

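Of 336 recomputed differences (21 values under 16 alternatives), 319 kept their direction and stayed uncalled, and 17 changed sign; 0 of the 7 genes were called in any comparison or alternative. In knockout against wild type, G6pc2, Slc30a8, Slc2a2, Kcnj11 and Ero1lb kept their direction in all 16. Every sign change belonged to a value near 0 or to leaving out a library. With the sex term Abcc8 moved to -0.06 in knockout against wild type and Cacna1d to 0.01 in knockout against heterozygote. Leaving out each library in turn gave, for knockout against wild type, Abcc8 -0.05 to 0.10 and Cacna1d -0.14 to 0.01. For heterozygote against wild type it gave G6pc2 -0.49 to 0.05, Abcc8 -0.01 to 0.13 and Cacna1d -0.11 to 0.04. For knockout against heterozygote it gave Slc2a2 -0.17 to 0.25, Abcc8 -0.09 to 0.03, Cacna1d -0.10 to 0.05 and Slc30a8 -0.37 to 0.20. The causes were not tested.

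The number of genes called over all genes, 0 in each comparison (1117, 522 and 296 under an unadjusted p of 0.05 with limma; voom called 0 and had 1165, 505 and 275), became 1 for knockout against wild type and 6 for heterozygote against wild type with only the 2 groups compared, and 1 for heterozygote against wild type with the replicate block. Over the left-out libraries it ranged from 0 to 1, 0 to 7 and 0 to 4. Deviations of same-numbered libraries had correlations of -0.189 to 0.29 across genes, and those of differently numbered ones -0.344 to 0.276. Same-numbered heterozygotes and knockouts were positive in each case (0.29, 0.275 and 0.0468). The replicate number is not known to be a pairing, and these values do not settle it. Under the block Kcnj11 was no longer under an unadjusted p of 0.05 in knockout against wild type. Taken from FPKM + 1, the Abcc8 to Kcnj11 ratio was 1.23, 1.16 and 1.03 in wild type, heterozygote and knockout, and leaving out a library gave 1.21 to 1.30, 1.1 to 1.22 and 0.92 to 1.1. Slc30a8 (67 to 279 fragments per library) and G6pc2 (127 to 409.9) rested on the fewest fragments of the 7.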
